A study of Mus musculus with 5 samples.

Results

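Chondroitin and heparan sulfate synthesis enzymes were followed here in mouse lung fibroblasts given TGF-β1, as a list of 38 genes. The list was made from the known function of the enzymes, in 9 steps of the pathway (linker addition, chain elongation, epimerization, sulfation, sulfate removal and donor synthesis). Their values were not the rule of choice, but earlier results of these data were known when the list was chosen. All 38 were among the 55335 gene IDs of the count table and all 38 passed the low-count filter, as members of the 16380 genes tested. The cells were primary lung fibroblasts isolated from mice and grown in culture, and were cultured with vehicle alone (2 control libraries) or with 5 ng/mL of TGF-β1 for 24 h (3 treated libraries). Polyadenylated RNA was sequenced from strand-specific libraries. The series calls the libraries independent biological replicates, but strain, age, sex, passage and whether the libraries came from separate animals or dishes were not given in the sources used here. The p-values therefore cover only the variation among the 5 libraries, which may be technical.

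Chondroitin sulfate and heparan sulfate are long sulfated sugar chains carried by proteoglycan core proteins at the cell surface and in the matrix. Both start from the same tetrasaccharide linker, built on a serine of the core protein from xylose, galactose, galactose and glucuronic acid, and the next sugar decides the chain: N-acetylgalactosamine starts chondroitin sulfate and N-acetylglucosamine starts heparan sulfate. Polymerases then extend the chain, an epimerase can turn glucuronic into iduronic acid (chondroitin sulfate so changed is called dermatan sulfate), and sulfotransferases add sulfate from the donor PAPS. The pattern of sulfate sets which growth factors, chemokines and matrix proteins a chain binds, and in lung the chains are part of basement membranes and of the interstitial matrix that fibroblasts lay down.

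Library totals were 34283288 to 43163967 counts, and Pearson correlations of log2 CPM were 0.987 to 0.989 within groups and 0.958 to 0.960 between them. All 8 genes of a TGF-β response list were higher with TGF-β1. Of 9 fibroblast markers, 4 were higher and 5 lower, and the list summed to 26139 to 27149 CPM in the controls and 33270 to 33534 CPM with TGF-β1. Col1a1 alone went from 10220 ± 316 to 16482 ± 72.7 CPM, while the 5 lower ones were Col3a1, Pdgfra, Thy1, Dcn and Lum. Lum, a keratan sulfate proteoglycan gene, was under 1 CPM in both groups. Marker sums of mesothelial, leukocyte and mural cells were lower with TGF-β1, while those of epithelial and endothelial cells overlapped between groups. The 8 mesothelial markers were all lower and summed to 1386 to 1471 CPM in the controls and 168 to 187 CPM with TGF-β1. Of 8 leukocyte markers 6 were tested, and 5 were lower and 1, Ptprc, higher. The 8 summed to 2370 to 2447 CPM and 1430 to 1461 CPM, most of it Lyz2 at 1994.5 ± 49.4 and 1136.7 ± 11.7 CPM, and Cd3e was at 0. Of 6 mural and smooth muscle markers, 1 was higher and 4 lower, with sums of 7623 to 7962 CPM and 6829 to 6859 CPM. The 8 epithelial markers summed to 35.9 to 39.7 CPM in the controls and 36.4 to 41.6 CPM with TGF-β1, most of it Krt8, a keratin at 35.5 ± 2.24 and 34.6 ± 2.59 CPM. Cdh1, E-cadherin, was called higher (2.03 ± 0.348 to 3.92 ± 0.205 CPM, adjusted p = 0.00261), while Sftpc, Sftpa1, Nkx2-1 and Scgb1a1 were at 0 in all 5 libraries, and the 6 endothelial markers summed to at most 4.83 CPM. The part of these cells in the enzyme values below was not tested, and in bulk RNA fewer cells of a type and less RNA per cell cannot be told apart.

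Most of the enzyme genes that passed the test rose, and every step but the dermatan epimerases held at least 1 that rose. The increases of at least 2-fold lay in the start and extension of the chondroitin chain, in its sulfation and in the heparan epimerase. At an adjusted p under 0.05 (edgeR's quasi-likelihood test, adjusted over all 16380 genes), 18 of the 38 were higher with TGF-β1, 5 were lower and 15 did not pass. Over all tested genes 21.3% were called higher and 23.2% lower, 44.5% in all, against 60.5% of the 38. The 6 that rose at least 2-fold were Csgalnact1, Chsy3, Ust, Glce, Chsy1 and Chst11, and the 2 that fell at least 2-fold were Extl1 and Hs3st1, where 3.19% of all genes rose and 7.74% fell by that much (10.9% either way). A called change of at least 1.5-fold was found in 14 of the 38 and in 18.9% of all genes. The median log2 fold change of the 38 was 0.11, against 0.00 for all tested genes. Of the calls, 78.3% were higher under TMM scaling. Scaling by library totals gave 66.7% (16 higher and 8 lower), a choice that shifts the median of all genes by −0.10. Without TGF-β1 replicate 3 the counts were 18 and 6. Without control 1, which leaves a lone control, the calls on Ext2 (higher) and on Chst7 and Sulf2 (lower) were lost. Against a null of a 1.5-fold change, 9 remained higher and 1 lower.

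**Figure D1:**
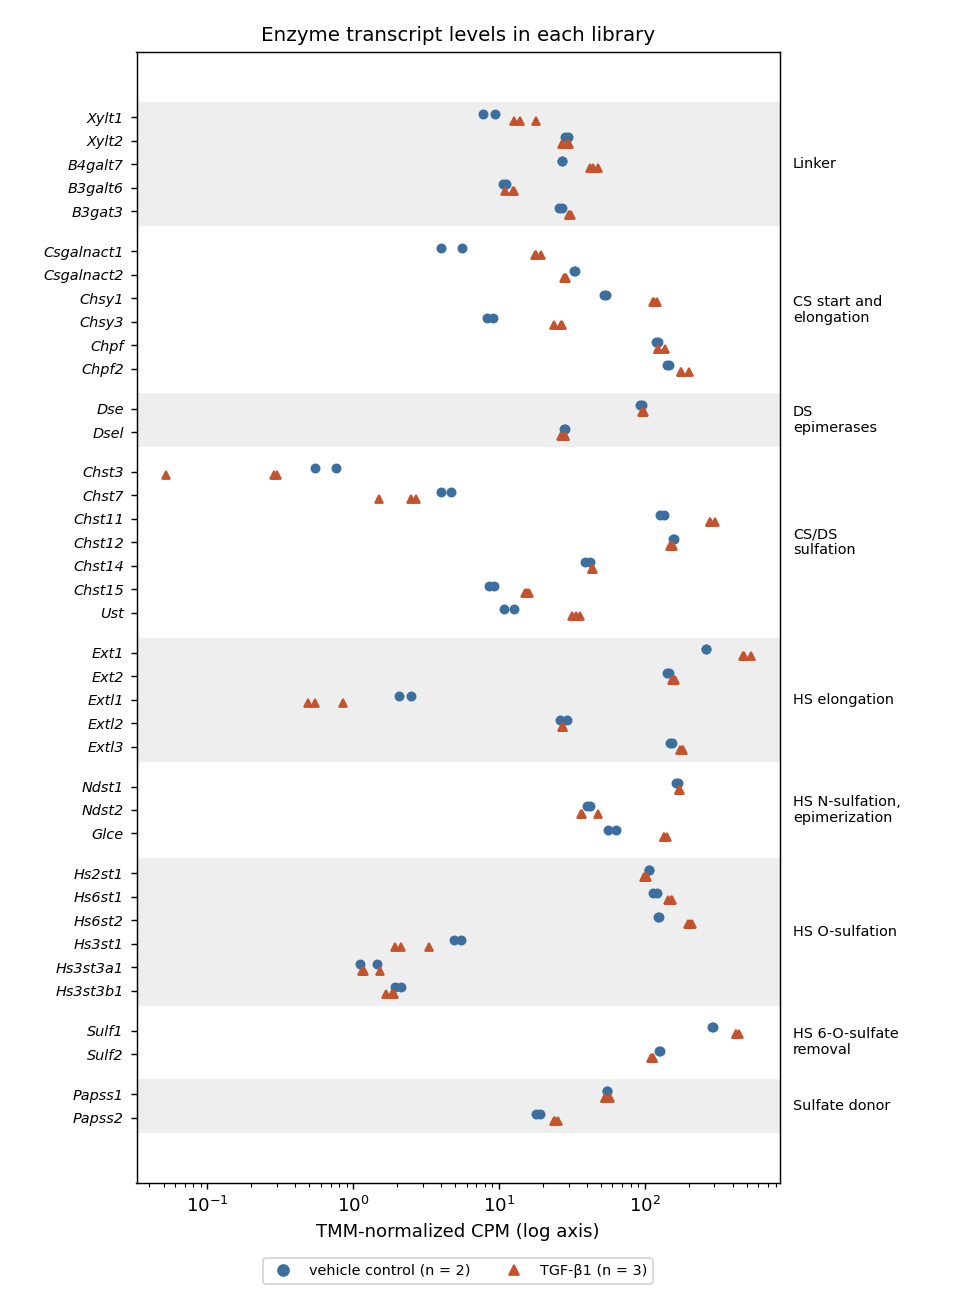
TMM-normalized CPM on a log axis for each of the 38 enzyme genes, grouped by step, with a circle for each of 2 control libraries and a triangle for each of 3 TGF-β1 libraries. Chsy1, Chst11, Ust, Ext1 and Glce show TGF-β1 libraries well to the right of the controls, and levels run from under 1 CPM for Chst3 to over 400 CPM for Ext1 with TGF-β1.

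The linker is built by 5 enzymes, of which 3 rose and 0 fell (60.0% called, against 44.5% of all tested genes). Xylosyltransferases put the first sugar on the core protein. Xylt1, one of these (ENSMUSG00000030657 on chromosome 7, 117380979 to 117673580 of GRCm38), stood at 7.75 and 9.32 CPM in the controls and at 12.8, 13.9 and 17.9 CPM with TGF-β1. Every TGF-β1 library was above both controls, with replicate 3 the highest (log2 fold change 0.79, SE 0.157, adjusted p = 0.00276). Its paralog Xylt2 was the more abundant and went from 29.1 ± 1.07 (SD, n = 2) to 28.8 ± 1.68 CPM (SD, n = 3), with overlapping groups and no call (adjusted p = 0.895). B4galt7, which adds the first galactose, was at 27.1 and 27.2 CPM in the controls and 44.0, 42.3 and 47.6 CPM with TGF-β1. That 1.64-fold rise (log2 fold change 0.72, SE 0.0645, adjusted p = 1.88e-05) made it the most abundant linker gene per exon length, at 15.4 RPKM. B3galt6, which adds the second galactose, did not pass (10.9 ± 0.296 to 12.1 ± 0.921 CPM, adjusted p = 0.286). B3gat3, which closes the linker with glucuronic acid, went from 26.4 ± 0.917 to 30.7 ± 0.539 CPM (log2 fold change 0.22, adjusted p = 0.0162). The call on B3gat3 was lost without control 2 (adjusted p = 0.115), without TGF-β1 replicate 2 (0.05004) and with library totals (0.149).

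Of the 6 genes that start and extend the chondroitin chain, 4 rose and 1 fell, with 3 of the increases over 2-fold. Calls were made on 83.3% of these genes, against 44.5% of all tested genes. Csgalnact1, an N-acetylgalactosaminyltransferase that starts the chain (ENSMUSG00000036356 on chromosome 8, 68356781 to 68735146), was at 4.02 and 5.54 CPM in the controls and 17.6, 19.5 and 18.0 CPM with TGF-β1. This was the largest increase among the 38 genes (3.82-fold, log2 fold change 1.94, SE 0.139, adjusted p = 4.01e-06). Csgalnact2, which catalyses the same step, moved the other way, from 32.6 and 33.4 CPM to 28.6, 28.3 and 27.8 CPM (log2 fold change −0.23, SE 0.0566, adjusted p = 0.00988). The groups of Csgalnact2 did not overlap, but its call was lost without control 2 (adjusted p = 0.0736). Chsy1, a chondroitin synthase that alternates both sugars of the chain (ENSMUSG00000032640 on chromosome 7, 66109515 to 66173798), rose from 52.2 and 54.0 CPM to 116, 120 and 115 CPM (log2 fold change 1.14, SE 0.0454, adjusted p = 7.69e-08). Chsy3, another synthase of the family (ENSMUSG00000058152 on chromosome 18, 59175401 to 59535999), rose from 8.23 and 9.13 CPM to 27.1, 23.9 and 26.6 CPM (log2 fold change 1.57, SE 0.0934, adjusted p = 1.10e-06). In both synthases the spread within a group was small against the gap between groups. Chpf, a polymerizing factor that works together with the synthases, was the most abundant gene of this step per exon length over all 5 libraries. It did not pass, at 119 and 123 CPM in the controls and 123, 124 and 137 CPM with TGF-β1 (log2 fold change 0.08, SE 0.0523, adjusted p = 0.266). With TGF-β1, Chpf and Chpf2 were level per exon length, at 33.1 and 33.2 RPKM, and in CPM Chpf2 was the higher in every library. Its paralog Chpf2 went from 147 and 142 CPM to 178, 177 and 202 CPM (log2 fold change 0.36, adjusted p = 0.000743). The Chpf2 value is uncertain, because 44.1% of its exon length lies opposite exons of Smarcd3, a chromatin remodelling gene at 23.3 ± 0.0629 and 24.9 ± 1.61 CPM, and the strand setting of the counting is not known.

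**Figure D2:**
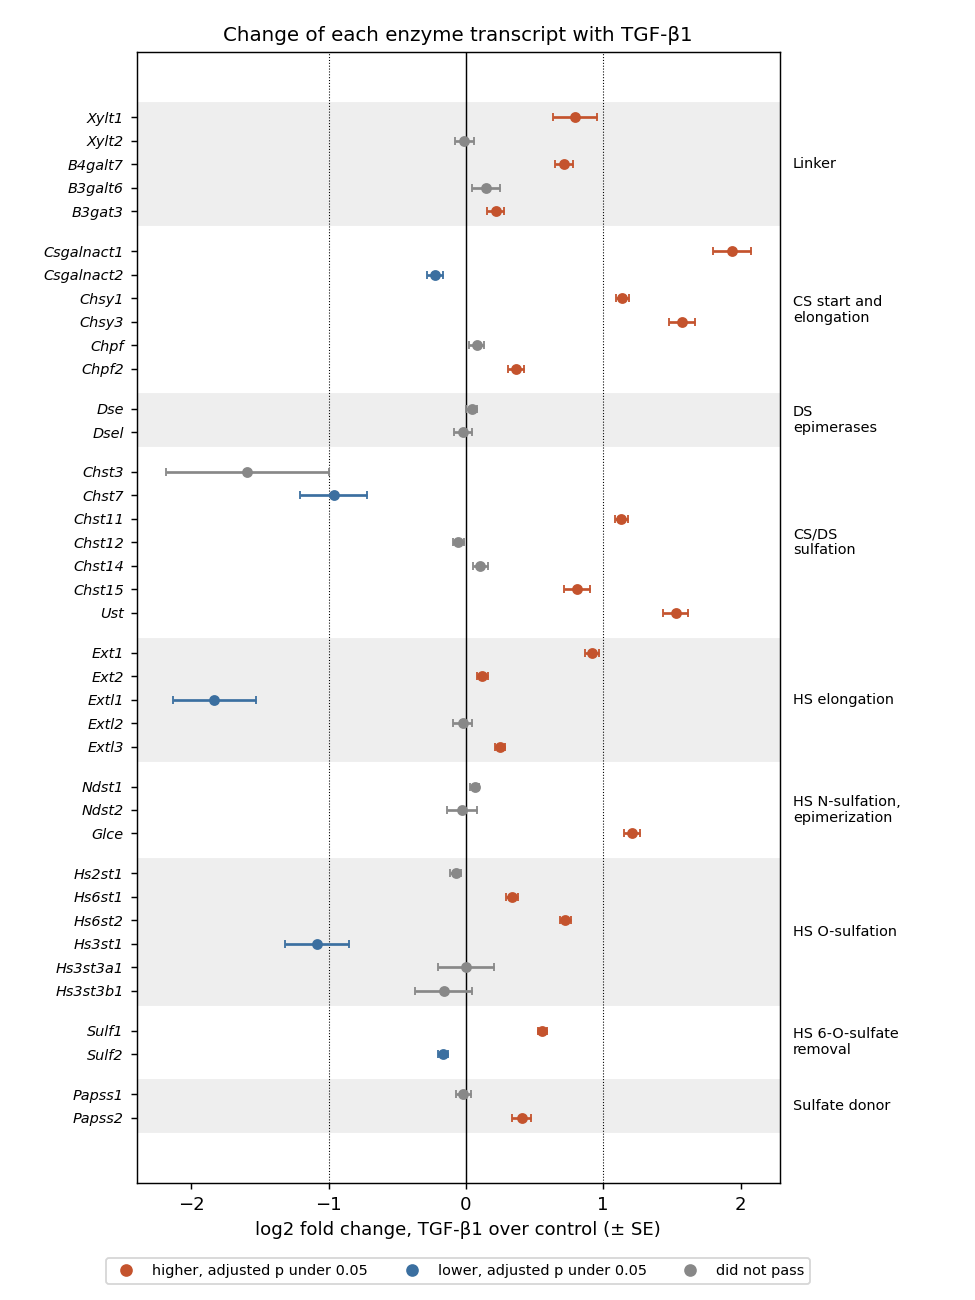
Log2 fold change of each enzyme gene, TGF-β1 over control, with its SE as bars (edgeR, n = 3 against 2), grouped by step, and dotted lines at a 2-fold change either way. Csgalnact1, Chsy3 and Ust lie farthest to the right, at 1.94, 1.57 and 1.53, and Extl1 farthest to the left, at −1.83.

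Sulfation of chondroitin and dermatan sulfate is carried out by 7 listed enzymes, of which 3 rose, 1 fell and 3 did not pass. The share called was 57.1%, against 44.5% of all tested genes. Chst11, a chondroitin 4-O-sulfotransferase (ENSMUSG00000034612 on chromosome 10, 82985498 to 83195900), was at 136 and 126 CPM in the controls and 278, 281 and 302 CPM with TGF-β1. The increase was 2.19-fold (log2 fold change 1.13, SE 0.0475, adjusted p = 1.11e-07). Chst12, which also adds 4-O-sulfate to chondroitin, stood at 156 and 158 CPM in the controls and 151, 148 and 156 CPM with TGF-β1 and did not pass (log2 fold change −0.05, SE 0.0373, adjusted p = 0.276), though it was called lower with library totals (adjusted p = 0.00825). Ust, which adds 2-O-sulfate to the uronic acid (ENSMUSG00000047712 on chromosome 10, 8204756 to 8518825), rose from 12.7 and 10.9 CPM to 31.8, 33.8 and 36.2 CPM (log2 fold change 1.53, SE 0.0926, adjusted p = 1.28e-06). Chst15, which adds a 6-O-sulfate to N-acetylgalactosamine that already carries 4-O-sulfate, rose from 9.30 and 8.58 CPM to 16.2, 15.2 and 15.5 CPM (log2 fold change 0.81, SE 0.0935, adjusted p = 0.000102). Genes of the enzymes that put 6-O-sulfate on unsulfated N-acetylgalactosamine were scarce and had lower values with TGF-β1. Chst7 fell from 4.66 and 4.02 CPM to 1.49, 2.69 and 2.48 CPM (log2 fold change −0.96, SE 0.246, adjusted p = 0.0107). Chst3, at 27 and 23 counts in the controls, had 12, 12 and 2 counts with TGF-β1 and did not pass by edgeR (log2 fold change −1.59, SE 0.595, adjusted p = 0.0557), though it was called lower by limma-voom (adjusted p = 0.0389) and with library totals (0.0441).

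The dermatan epimerase genes and the dermatan 4-O-sulfotransferase gene did not pass the test. Ust, listed for chondroitin and dermatan sulfate together, rose as given above. Dse, the more abundant of the epimerases that make iduronic acid, was at 95.8 and 93.0 CPM in the controls and 97.2, 96.04 and 98.2 CPM with TGF-β1 (log2 fold change 0.04, SE 0.0400, adjusted p = 0.441), and with library totals its sign changed (−0.06 on the log2 scale). Dsel, the other epimerase, went from 28.2 ± 0.207 to 27.8 ± 1.15 CPM (adjusted p = 0.823). Chst14, the dermatan 4-O-sulfotransferase, went from 40.5 ± 2.25 to 43.5 ± 0.416 CPM (0.10 on the log2 scale, SE 0.0544, adjusted p = 0.154).

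The regions upstream of 5 of these genes are shown for the members that rose at least 2-fold and are in the RefSeq promoter table for GRCm38.p6 (4 of the 6), and for Chst12 as the paralog of Chst11 without a call. Each is the stretch up to 250 bases before the RefSeq start, ended at the first exon base of the gene in GENCODE, on the strand of the gene. Capitals mark a match to any of 6 short motifs, searched on both strands: CAGACA and GTCTAGAC (SMAD-binding elements), GGCGCC (a GC-rich SMAD element), TGANTCA (AP-1), GGAATG (TEAD) and CACGTG (the E-box).
Chsy1, chr7:66109242-66109491, plus strand: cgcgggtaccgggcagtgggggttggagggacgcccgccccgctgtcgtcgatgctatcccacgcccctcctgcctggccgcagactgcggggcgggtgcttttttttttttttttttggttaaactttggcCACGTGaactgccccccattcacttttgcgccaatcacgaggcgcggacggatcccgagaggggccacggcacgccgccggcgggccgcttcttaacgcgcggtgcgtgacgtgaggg
Chst11, chr10:82985247-82985496, plus strand: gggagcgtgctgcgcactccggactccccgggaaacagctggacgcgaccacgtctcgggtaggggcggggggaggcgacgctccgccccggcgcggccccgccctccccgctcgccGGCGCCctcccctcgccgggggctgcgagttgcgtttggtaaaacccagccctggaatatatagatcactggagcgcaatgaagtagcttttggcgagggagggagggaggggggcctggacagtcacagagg
Chst12, chr5:140505359-140505549, plus strand: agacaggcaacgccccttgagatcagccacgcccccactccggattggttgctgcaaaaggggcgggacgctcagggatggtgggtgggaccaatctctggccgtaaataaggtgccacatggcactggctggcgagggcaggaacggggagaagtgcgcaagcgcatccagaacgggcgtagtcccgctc
Ust, chr10:8518826-8519075, minus strand: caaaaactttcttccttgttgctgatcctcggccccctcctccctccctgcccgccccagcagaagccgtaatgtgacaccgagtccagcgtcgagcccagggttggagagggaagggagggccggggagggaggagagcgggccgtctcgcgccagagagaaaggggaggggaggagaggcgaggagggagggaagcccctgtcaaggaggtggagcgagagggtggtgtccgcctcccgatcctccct
Glce, chr9:62122656-62122859, minus strand: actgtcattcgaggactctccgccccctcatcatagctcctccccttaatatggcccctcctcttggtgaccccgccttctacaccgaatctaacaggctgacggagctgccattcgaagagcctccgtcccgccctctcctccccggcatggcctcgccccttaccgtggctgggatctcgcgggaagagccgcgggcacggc
Only CACGTG in Chsy1 and GGCGCC in Chst11 were found among these stretches, and no motif was found in those of Chst12, Ust and Glce. Over the 39 windows of 250 bases of the 31 members in the table, CAGACA was in 10.3% against 17.1% of all 32851 promoters, and TGANTCA in 2.56% against 6.75%. GTCTAGAC was in 0 member windows and 0.167% of all. GGCGCC was in 15.4% against 9.59%, GGAATG in 15.4% against 12.6% and CACGTG in 12.8% against 6.02%. Windows of the same gene can overlap. Both Chst15 windows hold the same GGAATG match, which was therefore counted more than once. These differences were not tested. The windows of the 5 genes were GC-rich, at 65.6% to 70.0%.

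Heparan chain elongation was led by Ext1, the main polymerase gene, which forms a complex with the product of Ext2. Ext1 (ENSMUSG00000061731 on chromosome 15, 53064038 to 53346159) was at 263 CPM in each control and at 482, 473 and 534 CPM with TGF-β1. It rose 1.89-fold (log2 fold change 0.92, SE 0.0492, adjusted p = 5.54e-07). Ext2 went from 145 ± 3.90 to 157 ± 4.09 CPM and was called higher (0.12 on the log2 scale, SE 0.0386, adjusted p = 0.0304). The call on Ext2 was lost without control 1, control 2 or TGF-β1 replicate 1 (adjusted p = 0.0573, 0.197 and 0.0597), with library totals (0.689) and without the low-count filter (0.0647). Extl3, which starts the heparan chain, went from 151 ± 3.83 to 180 ± 4.43 CPM and was called higher (0.25 on the log2 scale, adjusted p = 0.000561). Extl2, an N-acetylhexosaminyltransferase that acts on the linker, did not pass (27.9 ± 2.18 to 27.4 ± 0.304 CPM, adjusted p = 0.811). Extl1, the scarcest of the family (ENSMUSG00000028838 on chromosome 4, 134356372 to 134383850), fell from 2.05 and 2.47 CPM to 0.547, 0.857 and 0.491 CPM. This 3.56-fold decrease was the largest called among the 38 genes (log2 fold change −1.83, SE 0.304, adjusted p = 0.000988).

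Of the 9 enzymes that modify the heparan chain after elongation, 3 rose, 1 fell and 5 did not pass. Calls fell on 1 of 3 N-sulfation and epimerization genes and on 3 of 6 O-sulfation genes, against 44.5% of all tested genes. Glce, the epimerase that turns glucuronic into iduronic acid in heparan sulfate (ENSMUSG00000032252 on chromosome 9, 62057248 to 62122655), rose from 63.3 and 56.1 CPM to 136, 136 and 142 CPM. The change was 2.31-fold (log2 fold change 1.21, SE 0.0567, adjusted p = 2.25e-07). Ndst1, the N-deacetylase and N-sulfotransferase that acts before it and is the more abundant of the pair, was at 163 and 168 CPM in the controls and 175, 173 and 172 CPM with TGF-β1 and did not pass (log2 fold change 0.06, SE 0.0338, adjusted p = 0.154). With library totals its sign changed (−0.03 on the log2 scale). Ndst2 stood at 41.9 and 40.1 CPM in the controls and 36.9, 36.3 and 47.6 CPM with TGF-β1 (adjusted p = 0.859). Only replicate 3 of Ndst2 lay above the controls, and without it the gene was called lower (log2 fold change −0.16, adjusted p = 0.0324).

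Among the O-sulfotransferases of heparan sulfate, both 6-O enzymes rose. Hs6st2 (ENSMUSG00000062184 on chromosome X, 51387212 to 51681856) rose from 123 and 124 CPM to 197, 203 and 211 CPM (log2 fold change 0.72, SE 0.0394, adjusted p = 6.11e-07). Hs6st1, the more abundant per exon length over all 5 libraries, rose less, from 122 and 115 CPM to 150, 153 and 145 CPM (log2 fold change 0.33, SE 0.0435, adjusted p = 0.000216). In both genes every TGF-β1 library lay above both controls. Hs2st1, the 2-O-sulfotransferase that acts on iduronic acid, went from 106 ± 0.334 to 101 ± 2.39 CPM and did not pass (adjusted p = 0.170), though it was called lower with library totals (adjusted p = 0.00613). Hs3st1, a 3-O-sulfotransferase known for making the antithrombin-binding site (ENSMUSG00000051022 on chromosome 5, 39613935 to 39755475), fell from 5.51 and 4.87 CPM to 2.11, 1.93 and 3.31 CPM. That was a 2.12-fold decrease (log2 fold change −1.08, SE 0.233, adjusted p = 0.00437). Hs3st3a1 and Hs3st3b1, 3-O-sulfotransferases known for making the binding site of a herpesvirus glycoprotein, were scarce and did not pass, at 1.29 ± 0.243 to 1.29 ± 0.208 CPM and 2.03 ± 0.148 to 1.81 ± 0.114 CPM. Hs3st3a1 is uncertain, as 32.9% of its exon length lies opposite exons of F930015N05Rik.

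The genes of the extracellular sulfatases, which take 6-O-sulfate off finished heparan chains, moved in opposite directions. Sulf1 was at 294 and 290 CPM in the controls and 423, 421 and 444 CPM with TGF-β1 (log2 fold change 0.55, SE 0.0324, adjusted p = 9.86e-07). Sulf2 went from 128 and 125 CPM to 111, 114 and 113 CPM (log2 fold change −0.17, SE 0.0372, adjusted p = 0.00562). The groups did not overlap in either gene, but the decrease of Sulf2 was small and its exons overlap those of Ncoa3 on the opposite strand over 2.62% of their length. PAPS, the sulfate donor of all these reactions, is made by the products of Papss1 and Papss2. Papss1 was at 55.5 and 55.1 CPM in the controls and 53.0, 53.2 and 57.7 CPM with TGF-β1, with overlapping groups (log2 fold change −0.02, SE 0.0540, adjusted p = 0.819). Papss2 went from 18.5 ± 0.867 to 24.5 ± 0.705 CPM and was called higher (0.41 on the log2 scale, SE 0.0712, adjusted p = 0.00137).

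Across the 38 genes, 30 had groups of libraries that did not overlap, which is 78.9% where 64.6% of all tested genes did so. TGF-β1 lay above in 21 of them and below in 9, against 31.6% and 33% of all genes. The 14 that did not pass, Chst3 left out, had log2 fold changes of −0.16 to 0.15, with SEs of 0.0338 to 0.209. By branch, 7 of 15 chondroitin and dermatan enzymes were higher and 2 lower, and 6 of 14 heparan enzymes were higher and 2 lower. The shares called were 60.0% and 57.1%, against 44.5% of all tested genes (21.3% higher and 23.2% lower). A rise of at least 2-fold was seen in 5 enzymes of the first branch and 1 of the second, a difference that was not tested.

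Per exon length, Chst12 had the highest level of the 38 genes in both groups, at 66.7 RPKM in the controls and 64.2 RPKM with TGF-β1 (group means, CPM per kilobase of all exons). Ext1 came second in both, at 32.5 and 61.4 RPKM. Chst11 moved from rank 7 to rank 3, from 23.7 to 52.0 RPKM, and Chsy1 from rank 17 to rank 8, from 12.7 to 28.0 RPKM. Csgalnact1 and Chsy3, with large fold changes, stayed low at 3.61 and 3.58 RPKM with TGF-β1, and 32 of the 38 were over 1 RPKM in both groups. Levels of different genes were not tested against each other, and the exon length counts every annotated exon, used or not.

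Related enzymes were also set against each other within a library, a ratio that does not depend on scaling between libraries. The groups did not overlap in 9 of 13 such pairs. For single genes that share was 64.6%, no share was computed for ratios of other gene pairs, and the ratios are given as a description. Csgalnact1 stood at 0.132 and 0.177 of Csgalnact2 per exon length in the controls and at 0.657, 0.735 and 0.691 of it with TGF-β1. Chst11 stood at 0.371 and 0.341 of Chst12 in the controls and at 0.791, 0.812 and 0.825 of it with TGF-β1. Both pairs thus moved toward equal levels without reaching them. The ratio of Ext1 to Ext2 went from 1.62 and 1.68 to 2.78, 2.79 and 2.99, and that of Sulf1 to Sulf2 from 1.20 and 1.21 to 1.99, 1.92 and 2.04. Papss1 to Papss2 went the other way, from 3.78 and 3.51 to 2.69, 2.67 and 2.78. The ratio of Hs6st1 to Hs6st2 went from 1.41 and 1.299 to 1.07, 1.06 and 0.965. The groups overlapped for Chst3 to Chst7, Dse to Dsel, Ndst1 to Ndst2 and Hs3st3a1 to Hs3st3b1.

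**Figure D3:**
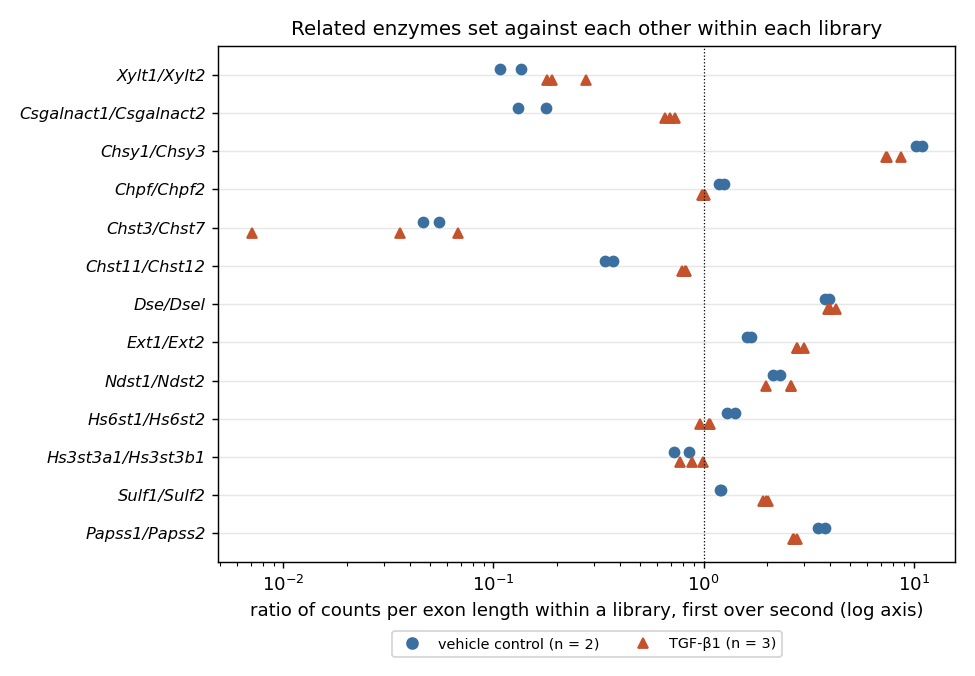
Ratio of counts per exon length, first gene over second, within each library on a log axis, for 13 pairs of related enzymes, with a circle for each of 2 control libraries and a triangle for each of 3 TGF-β1 libraries. Csgalnact1/Csgalnact2 shows the widest gap, with controls at 0.132 and 0.177 and TGF-β1 libraries at 0.657 to 0.735.

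Other genes of the pathway were taken as 8 further lists. Of the 10 that supply UDP-sugars, 6 rose, 2 fell and 2 did not pass (80.0% called, against 44.5% of all tested genes). Gnpnat1 and Pgm3, enzymes on the way to UDP-N-acetylglucosamine, rose from 28.0 ± 0.755 to 47.1 ± 0.527 CPM (log2 fold change 0.75, adjusted p = 3.34e-06) and from 22.0 ± 1.24 to 32.6 ± 0.880 CPM (log2 fold change 0.57, adjusted p = 0.000101). Both values are uncertain, since 81.9% and 28.3% of their exon lengths lie opposite exons of Styx and Dop1a. Uap1l1, a homologue of the enzyme of the last step, fell from 38.8 ± 0.232 to 20.1 ± 1.80 CPM (log2 fold change −0.95, adjusted p = 1.02e-05). Uap1, the enzyme of that step itself and named after its values were seen, rose from 36.0 ± 1.76 to 51.5 ± 3.04 CPM (0.52 on the log2 scale, adjusted p = 0.000166). Of 9 genes for Golgi nucleotide sugar and PAPS transport and PAPS recycling, 4 rose and 1 fell, none by 1.5-fold. The share called was 55.6%, against 44.5% of all tested genes. With library totals 2 rose and 2 fell, and the decrease, in Slc35b4, was not called without control 1 or without control 2, while 2 genes fell without TGF-β1 replicate 3 or with the replicate block. Slc35a2, a UDP-galactose transporter, Bpnt1, a nucleotidase of the by-product of sulfation, and Slc35a3, a UDP-N-acetylglucosamine transporter, had log2 fold changes of 0.30, 0.29 and 0.24 (adjusted p = 0.00398, 0.00163 and 0.0220). The call on Slc35a3 was lost without control 1 (adjusted p = 0.189), without TGF-β1 replicate 2 (0.0623) and with library totals (0.157). Fam20b and Pxylp1, the kinase and the phosphatase of the linker xylose, did not pass (adjusted p = 0.238 and 0.897).

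Of 7 listed sulfate transporter genes 4 were tested, and 1 rose, 1 fell and 2 did not pass, where 44.5% of all tested genes were called. Slc26a6 and Slc26a7 were those without a call (adjusted p = 0.757 and 0.503). Slc26a2, a sulfate transporter needed for cartilage proteoglycans, rose from 20.8 and 20.0 CPM to 28.0, 27.0 and 32.0 CPM (log2 fold change 0.51, adjusted p = 0.00103). Slc26a11, another member of that anion transporter family, fell from 16.0 and 15.9 CPM to 3.48, 4.45 and 3.75 CPM (log2 fold change −2.03, SE 0.126, adjusted p = 1.49e-06). Of 17 sulfotransferases and synthases of the same families that are outside the 38, 6 were tested. Among these 6, 3 rose, 0 fell and 3 did not pass (1 fell without TGF-β1 replicate 1). Over all tested genes 21.3% were called higher and 23.2% lower, 44.5% in all. Chst2 and Chst1, which sulfate N-acetylglucosamine and keratan sulfate, rose from 15.5 ± 0.00220 to 51.6 ± 3.36 CPM (log2 fold change 1.74, adjusted p = 9.05e-08) and from 6.17 ± 0.185 to 9.47 ± 0.160 CPM (log2 fold change 0.62, adjusted p = 0.00148). The third, Chst5, stayed under 1 CPM in both groups.

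Of 16 tested genes of chain degradation, 8 fell, 2 rose and 6 did not pass. Over all tested genes 21.3% were called higher and 23.2% lower, 44.5% in all, against 62.5% of this list. Sgsh, the lysosomal N-sulfoglucosamine sulfohydrolase, fell from 30.7 and 32.8 CPM to 9.52, 10.4 and 9.77 CPM (log2 fold change −1.68, SE 0.0779, adjusted p = 2.07e-07). Naglu and Ids, further lysosomal enzymes that break down heparan sulfate, fell from 56.6 ± 0.0205 to 42.6 ± 2.26 CPM (log2 fold change −0.41, adjusted p = 0.000315) and from 85.3 ± 2.02 to 65.7 ± 5.60 CPM (log2 fold change −0.38, adjusted p = 0.00156). The 2 that rose were Sumf1 and Sumf2, named after their values were seen, which encode the sulfatase-modifying factor and its paralog (log2 fold changes 0.15 and 0.27), and with library totals, or without control 1, control 2 or TGF-β1 replicate 2, 0 of the list were higher. Leukocyte markers also summed lower with TGF-β1, at 1430 to 1461 CPM against 2370 to 2447 CPM. So did mesothelial markers, at 168 to 187 against 1386 to 1471 CPM, and mural markers, at 6829 to 6859 against 7623 to 7962 CPM. The fibroblast sum was higher, though 5 of its 9 markers were lower, and the epithelial and endothelial sums overlapped between groups. The part of any of these cells in the decreases was not tested.

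Core protein genes moved in both directions. In the chondroitin and dermatan list 54.5% of tested genes were called and in the heparan list 76.9%, against 44.5% of all tested genes. Of 11 tested chondroitin and dermatan core protein genes, 5 rose and 1 fell, with Cspg4, the NG2 proteoglycan, from 4.31 ± 0.458 to 48.0 ± 2.02 CPM (log2 fold change 3.47), Acan, aggrecan, from 7.96 ± 1.12 to 24.3 ± 0.501 CPM and Dcn, decorin, from 141 ± 7.13 to 37.7 ± 1.27 CPM. Of 13 tested heparan core protein genes, 5 rose and 5 fell, with log2 fold changes of 1.46 for Col18a1, −1.36 for Sdc4 and −2.28 for Tgfbr3.

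**Figure D4:**
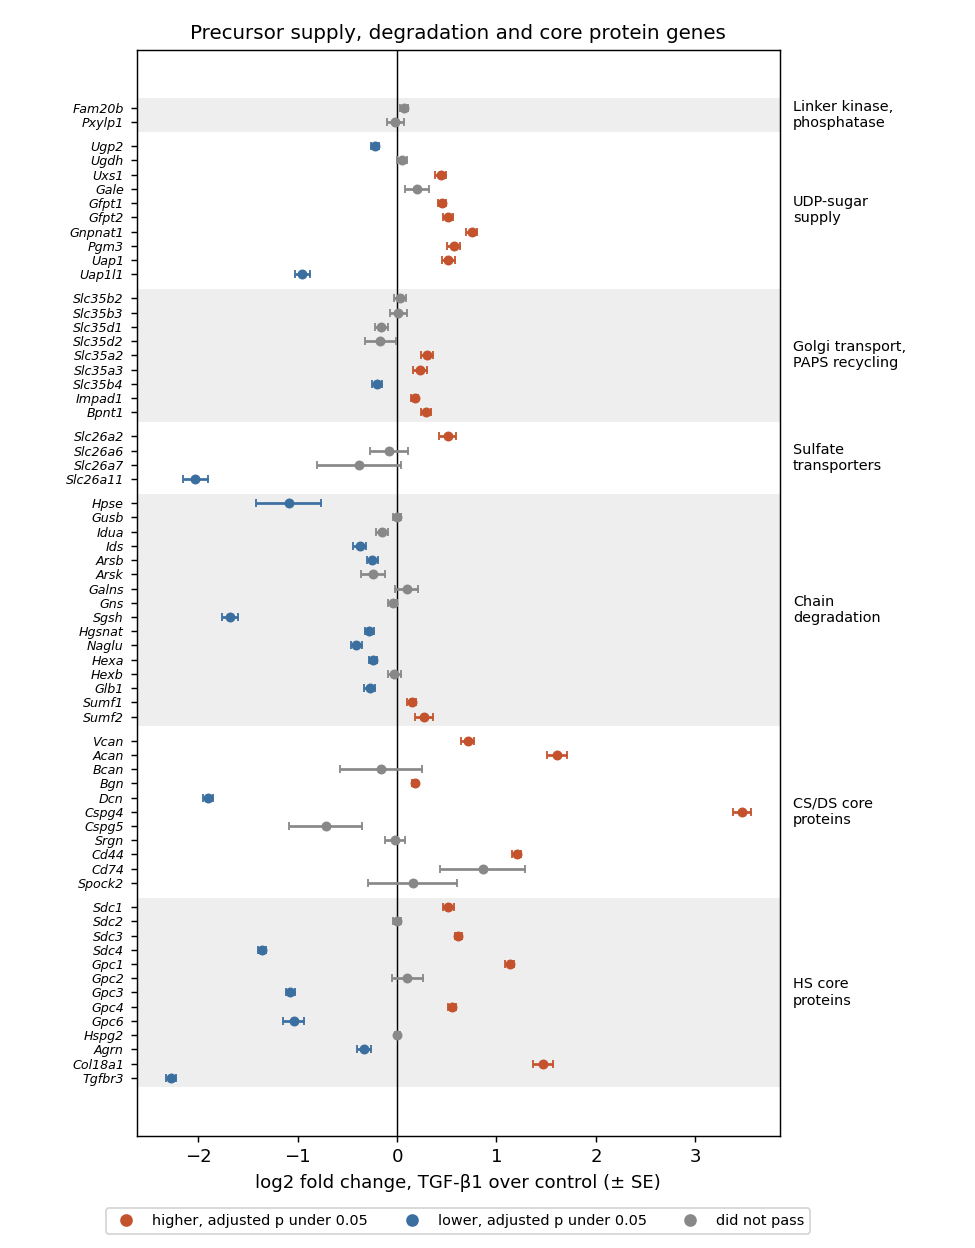
Log2 fold change, TGF-β1 over control, with its SE as bars (edgeR, n = 3 against 2), for the tested genes of 7 pathway lists around the synthesis enzymes. Most UDP-sugar supply genes lie to the right of 0, most degradation genes at or to the left of it, and Slc26a11 and Sgsh lie at −2.03 and −1.68. The core protein genes spread from −2.28 for Tgfbr3 to 3.47 for Cspg4.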

How the data were processed

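Gene counts were analysed for 5 libraries of mouse lung fibroblasts, 2 with vehicle and 3 with TGF-β1. The authors deposited whole-number counts per Ensembl gene ID, with no scaling. The submitters' processing notes name STAR 2.5.3a, StringTie 1.3.1c and mm10; the counting tool and its strand setting were not given in the sources used here. IDs were matched to GENCODE M21 (GRCm38) symbols, 55154 of 55335, and coordinates are 1-based gene spans.

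Counts were filtered with filterByExpr, scaled with TMM (factors 0.972 to 1.05) and tested with edgeR 4.0.16 in R 4.3.3 (quasi-likelihood F test, group alone, two-sided, Benjamini-Hochberg over 16380 genes, threshold 0.05). SE is the absolute log2 fold change over the square root of F. With 2 libraries against 3 the smallest exact permutation p is 0.1, and the p-values given come from a dispersion pooled over genes. Fold changes are TGF-β1 over control. CPM are TMM-normalized, and RPKM divide them by the summed exon length. Depth was 34283288 to 43163967 counts per library. Log2 CPM for correlations used a prior count of 2. The test was also run on simulated counts with far fewer changed genes than were called here. That run cannot show the error rate of these calls.

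The members and lists were chosen with earlier results of these data known. Members called with a change of at least 1.5-fold and a mean of at least 1 CPM, and the most abundant of each step per exon length, were given in full. From other lists, up to 3 called genes with a mean of at least 5 CPM were named by size of change. Alternatives were other scalings, filters, DESeq2 1.42.0, limma-voom (limma 3.58.1), a 1.5-fold null, a replicate block and leaving out each library. Transcripts of members were compared with those of all other genes by BLAST+ 2.17.0 (at least 98% identity over 75 bases), which found no sharing between members. Figures used matplotlib 3.10.9.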

Additional observations from a re-analysis of the deposited data

How the results depend on the processing

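Of 531 refits of single enzymes over 14 alternatives, 482 kept direction and side of the threshold, 24 lost the call, 6 gained one and 19 turned direction, each in a gene without a call. With library totals, 2325 of all genes were higher and 4921 lower (67.9% of calls), with 16 of the 38 enzymes higher and 8 lower, and directions turned for Chpf (log2 fold change −0.022), Dse (−0.058), Ndst1 (−0.035) and Hs3st3a1 (−0.10). With 1.5-fold as the null hypothesis, 563 genes passed as higher and 1223 as lower, with 9 and 1 of the enzymes, since that null asks for a larger change. Leaving out each library gave 2620 to 3623 genes higher and 2813 to 3881 lower, with 16 to 18 and 3 to 6 enzymes. Such refits straddled 0 for 6 genes: Xylt2 (−0.050 to 0.033), Dsel (−0.039 to 0.019), Extl2 (−0.10 to 0.059), Ndst2 (−0.16 to 0.047), Hs3st3a1 (−0.18 to 0.20), Papss1 (−0.059 to 0.0086). Hs3st3a1 also turned with upper-quartile scaling (−0.0078) and no filter (−0.0019). Control and TGF-β1 libraries of the same number share no stated source, and their deviations correlated at 0.0159 and 0.0161. The replicate block gave 3538 genes higher and 3727 lower, 18 and 6 enzymes, with Xylt2 at 0.033, Hs3st3a1 at −0.13 and a call on Ndst2 (adjusted p = 0.0381). A lone control was taken to vary as the TGF-β1 libraries do. Low counts limit Chst3, Extl1 and the 3-O-sulfotransferases.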

Other observations

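Sgsh and Slc26a11, which both fell, are neighbours on chromosome 11 and are transcribed away from each other, with annotated starts at 119355536 on the minus strand and 119355557 on the plus strand of GRCm38, 20 bases apart. They stood in separate lists, a degradation enzyme and an anion transporter, and the pair was chosen after its values were seen. Their exons do not overlap. Control libraries held 1093 and 1379 counts of Sgsh, and TGF-β1 libraries 383, 437 and 378. Of Slc26a11, control libraries held 569 and 668 counts, and TGF-β1 libraries 140, 187 and 145.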
